A study of Mus musculus with 4 samples.

Results

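Solute carriers are membrane proteins that move sugars, amino acids, ions, metals, nucleosides, lipids and drugs across cell and organelle membranes. Their genes carry the symbols Slc and, for the organic anion transporting polypeptides, Slco. In retinal endothelium several of them form the transport side of the blood-retina barrier, where tight junctions close the path between cells and nutrients have to be carried through the cell. The peaks described here are those of open chromatin, measured by ATAC-seq, whose assigned gene has a symbol that starts with Slc and a digit or with Slco. They number 125 peaks at 92 genes, of 6891 peaks listed in the authors' deposited table, and the rule that picks them reads the gene name only. RefSeq (GRCm38.p6) holds 389 protein-coding genes with such symbols, so 23.7% of them had a listed peak, against 18.5% of the 21507 other protein-coding genes.

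The knockout group consisted of mouse pups that carry the Pdgfb-iCre/ERT2 transgene (CreERT2pos) and are Rnf20p/p. The control group was Rnf20p/p without the transgene (CreERT2neg). Both carry the allele Rnf20tm1a(EUCOMM)Wtsi, floxed according to the protocol, in a C57BL/6 line with the transgene Tg(Pdgfb-icre/ERT2), and all received 75 µg of 4-hydroxytamoxifen daily from postnatal day 1 to day 4. Retinas were taken on postnatal day 7, and endothelial cells (EC) were captured with CD31-coated beads. RNF20 is a ligase that ubiquitinates histone H2B, and the Pdgfb driver is active in endothelium, so that the deletion is aimed at these cells. There are 4 libraries. The title and the genotype field match for 1 knockout and 1 control library, and they contradict each other for the other two. Which of the 4 the knockout and control means were formed from is not stated.

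The authors' deposited table gives, for each peak, a knockout mean and a control mean in log2 units, their difference as a log2 fold, the p-value before adjustment and the FDR, or false discovery rate, which is that p-value adjusted over all peaks tested. It holds no values per library, so there is no replicate error to print and every level below is the authors' group mean. Its highest p-value is 0.0499, so a peak that did not pass an unadjusted p of 0.05 is not in it, and a gene without a listed peak may be closed, open and alike in both groups, or changed by less than could be seen. The FDR values imply about 76300 peaks tested, of which about 3800 would be listed with no effect at all. Library depth is unknown. Endothelial identity could not be checked on such a list: 4 of 8 endothelial marker genes (Cdh5, Kdr, Erg and Emcn) had a listed peak, and among markers of Müller glia, pericytes, microglia and erythroid cells, Rlbp1, Pdgfrb, Aif1 and Klf1 had 1 listed peak each.

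Start-site sequences are shown first, since several peaks described next overlap them. A RefSeq promoter window (GRCm38.p6) was available for 14 of the 18 listed peaks within 1 kb of a transporter's transcription start site (TSS). The window runs from 250 bases before the start to 50 after it, and 6 peaks overlap that of their gene. Peaks at Slc16a5, Slc38a3, Slc7a4 and Slc45a2 had no window to compare. The 5 windows that overlap by more than 1 base are printed 5′ to 3′ on the strand of the gene. Capitals mark 4 short motifs found in them on either strand: CCGGAA, the core that ETS factors bind; GGGCGG, the GC box of SP factors; CCAAT; and CTTTGA, the core of TCF/LEF sites. The first 4 peaks had a lower mean in knockout, and the last, Slc9a7, had a higher one.
Slc39a11 (zinc transporter family, chr11:113650043-113650342, minus strand): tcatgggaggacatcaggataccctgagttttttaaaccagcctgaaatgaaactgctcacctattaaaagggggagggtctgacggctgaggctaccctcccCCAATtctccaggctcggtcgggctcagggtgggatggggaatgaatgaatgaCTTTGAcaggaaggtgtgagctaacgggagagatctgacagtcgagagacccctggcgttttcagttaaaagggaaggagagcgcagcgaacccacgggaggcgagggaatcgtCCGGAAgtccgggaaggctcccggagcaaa
Slc38a6 (amino acid transporter family, chr12:73286598-73286897, plus strand): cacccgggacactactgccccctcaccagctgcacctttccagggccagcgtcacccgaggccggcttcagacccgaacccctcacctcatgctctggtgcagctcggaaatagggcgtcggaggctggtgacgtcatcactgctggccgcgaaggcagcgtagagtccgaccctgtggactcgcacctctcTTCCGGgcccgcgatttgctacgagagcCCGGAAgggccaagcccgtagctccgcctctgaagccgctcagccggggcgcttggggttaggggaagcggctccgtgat
Slc25a20 (carnitine-acylcarnitine carrier, chr9:108661886-108662185, plus strand): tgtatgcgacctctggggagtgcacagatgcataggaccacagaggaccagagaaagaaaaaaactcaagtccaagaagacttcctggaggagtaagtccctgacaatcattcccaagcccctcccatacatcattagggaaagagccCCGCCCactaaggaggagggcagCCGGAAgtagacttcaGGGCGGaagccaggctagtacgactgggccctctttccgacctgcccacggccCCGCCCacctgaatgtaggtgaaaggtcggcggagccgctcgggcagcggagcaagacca
Slco2a1 (prostaglandin transporter, chr9:103008237-103008536, plus strand): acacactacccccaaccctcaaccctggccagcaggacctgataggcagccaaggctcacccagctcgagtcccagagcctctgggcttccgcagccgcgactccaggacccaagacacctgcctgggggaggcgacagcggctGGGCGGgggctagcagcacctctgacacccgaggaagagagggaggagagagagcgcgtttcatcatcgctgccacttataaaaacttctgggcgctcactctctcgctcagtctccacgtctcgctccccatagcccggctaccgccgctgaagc
Slc9a7 (sodium-proton exchanger, chrX:20291778-20292077, minus strand): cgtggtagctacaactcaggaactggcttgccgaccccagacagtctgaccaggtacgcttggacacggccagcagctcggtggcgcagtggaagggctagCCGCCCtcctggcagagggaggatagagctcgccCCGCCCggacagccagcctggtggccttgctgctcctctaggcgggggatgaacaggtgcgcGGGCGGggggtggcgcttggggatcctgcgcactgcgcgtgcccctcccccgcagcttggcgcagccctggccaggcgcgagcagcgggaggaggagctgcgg
The ETS core CCGGAA stands in the windows of Slc39a11, Slc38a6 and Slc25a20, and 14.9% of all 32851 RefSeq promoter windows hold it. The GC box GGGCGG stands in those of Slc25a20, Slco2a1 and Slc9a7, against 35.7% of all windows. CCAAT and CTTTGA stand in the Slc39a11 window only, against 37.4% and 16% of all windows. Also searched, on both strands, were the E-box CACGTG, the GATA-type motif AGATAA and the AP-1 motif TGANTCA, and none of them was in the 5 windows. The windows are rich in CpG: the ratio of observed to expected CpG was 0.52 to 0.78, against a median of 0.38 over all windows. A match of letters is not evidence of a bound factor.

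Accessibility close to transporter start sites was mostly lower in knockout cells. Within 1 kb of the TSS 13 of 18 listed peaks had a lower mean in knockout and 5 a higher one, that is 27.8% higher (95% Wilson interval 12.5% to 50.9%, counting error only). Of all other listed peaks within 1 kb, 30.7% were higher in knockout, so the transporters share this lean with the rest of the list. Each library pools many cells, so a different mix of cells and a different accessibility per cell cannot be told apart here or in the results that follow. None of the 18 passed FDR 0.05, and only 14 of the 739 other listed peaks within 1 kb did. The FDR values of the 18 in the authors' deposited table ran from 0.166 to 0.529.

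The carrier genes with a lower start-site mean cover several substrates. Slc39a11, a member of the zinc importer family, had 4.19 in knockout and 5.33 in control at its promoter, chr11:113649759-113650251, a log2 fold of -1.13 with FDR 0.166 in the authors' deposited table. The same interval overlaps Cog1, a gene for a Golgi complex subunit, and the signal cannot be ascribed to one of the 2 genes. Slc25a20 imports acylcarnitines into mitochondria for fatty acid oxidation, and had 2 adjacent peaks separated by 115 bases. The one at chr9:108661512-108661686, 537 bases upstream of the TSS, stood at 2.10 in knockout and 3.79 in control (-1.69, FDR 0.209), and the stronger one over the first exon at 5.80 and 6.54 (-0.74, FDR 0.528), as given for knockout and then control in the authors' deposited table. Both thus leaned the same way.

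At Slc38a6, chr12:73286597-73287492, the means were 6.66 in knockout and 7.37 in control (-0.71, FDR 0.383, from the authors' deposited table). That peak also spans the start of Trmt5, a tRNA methyltransferase gene, and the Slc31a1 peak, at the copper importer gene, is annotated to a transcript of Fkbp15. The Slc31a1 peak read 3.17 in knockout and 4.47 in control (-1.30, FDR 0.387, from the authors' deposited table). By RefSeq coordinates the Slc31a1 peak overlaps Slc31a1 alone and holds no start of another protein-coding gene. At the Slc38a6 and Slc31a1 peaks a difference cannot be ascribed to one of the 2 genes named for each. Slc38a3, the glutamine transporter SNAT3, had 4.78 in knockout and 5.58 in control at its promoter (-0.80, FDR 0.390, from the authors' deposited table). Slc45a2, a melanosome transporter of pigment cells, read 2.36 in knockout and 3.45 in control (-1.09, FDR 0.457, from the authors' deposited table).

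The strongest start-site peak by its control mean was that of Slc38a6, followed by Slc41a3, a magnesium transporter family gene, with 6.53 in knockout and 7.15 in control (-0.61, FDR 0.529, from the authors' deposited table). First-intron peaks within 1 kb were lower in knockout at Slc7a4, Slc7a8, Slc27a4 and Slc44a1, with folds of -0.93, -0.77, -0.96 and -0.94 in the authors' deposited table. Slc7a8 encodes the amino acid exchanger LAT2, Slc27a4 a fatty acid transport protein and Slc44a1 a choline transporter.

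The 5 start-site peaks with a higher knockout mean cover several substrates too, and the choline transporter family Slc44 is in both sets. Slc16a5, a monocarboxylate transporter family gene, had 3.06 in knockout and 0.88 in control (2.18, FDR 0.328, from the authors' deposited table). Slc47a2, a multidrug and toxin extrusion transporter gene, had 3.80 and 1.70 (2.09, FDR 0.233), knockout given before control, in the authors' deposited table. Slc44a5, a choline transporter-like gene, stood at 4.07 in knockout and 2.46 in control (1.61, FDR 0.333, from the authors' deposited table). These 3 families carry carboxylates, drugs and choline. Slc26a4, the anion exchanger pendrin, had 3.80 in knockout and 2.35 in control (1.45, FDR 0.509, from the authors' deposited table). Slc9a7, an organelle sodium-proton exchanger, had 4.08 in knockout and 3.00 in control (1.08, FDR 0.396, from the authors' deposited table). By mean signal in the authors' deposited table these 5 stood at 2.35 to 3.64 log2 units and the 13 lower peaks at 3.01 to 7.06, and the ranges overlap.

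**Figure D1:**
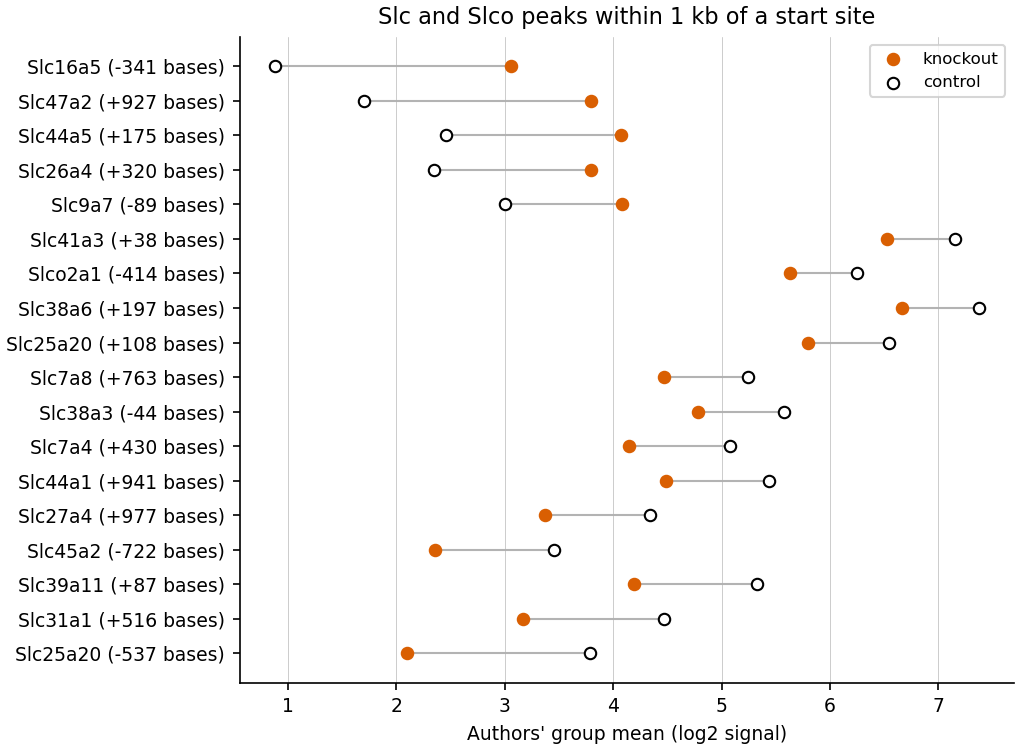
Knockout (filled) and control (open) group means in log2 signal for the 18 transporter peaks within 1 kb of a start site, named by gene and signed distance in bases and sorted by fold. In the upper 5 rows the knockout mean lies to the right of the control mean, and in the lower 13 to the left.

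Of the 125 transporter peaks, 3 passed FDR 0.05 (2.4%, 95% Wilson interval 0.82% to 6.82%, counting error only), and 3.02% of all listed peaks did. All 3 fell in knockout. In the whole list 119 of the 208 called peaks fell, which is 1.73% of the listed peaks. At FDR 0.1 the transporters had 8 peaks, 4 higher and 4 lower, and 7.89% of all listed peaks passed. At FDR 0.2 they had 26, of which 17 were higher, and 20.4% of all listed peaks passed. Slc16a9 encodes a member of the monocarboxylate transporter family. Its peak, in intergenic DNA at chr10:70337337-70337494 and 92140 bases downstream of the TSS, fell to 0.52 in knockout, against 3.60 in control (log2 fold -3.08, 8.46-fold lower, FDR 0.0332, from the authors' deposited table). Slc26a3 encodes the chloride-bicarbonate exchanger known from intestinal epithelium. Its peak in intron 10 of 20, at chr12:31457285-31457485, fell to 0.52 in knockout, against 3.66 in control (-3.14, 8.82-fold lower, FDR 0.0337, from the authors' deposited table). Slc10a7, a bile acid transporter family gene, fell to 1.13 in knockout, against 3.73 in control, at a peak in intron 2 of 9 (chr8:78521291-78521557; -2.60, FDR 0.0390, from the authors' deposited table).

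These 3 are weak sites. Their mean signals of 2.76, 2.81 and 2.95 log2 units in the authors' deposited table lie below the median of 3.74 over all listed peaks, and 0 of the 57 transporter peaks at or above that median were called, against 2.05% of all listed peaks there. At FDR 0.01 the transporters also had 0, and 0.319% of all listed peaks passed. Slc16a9, Slc26a3 and Slc10a7 had no second listed peak. The knockout mean of 0.52 at Slc16a9 and Slc26a3 was the smallest in its column above the lowest value, 0.13. The linear folds given for these peaks thus rest on a level near the lowest. The spread between libraries behind the differences at the 3 called peaks was not available.

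Beyond the threshold, the peaks of next smallest FDR went both ways. Slc25a24, the mitochondrial ATP-magnesium/phosphate carrier, stood at 3.72 in knockout and 0.51 in control in intron 1 (chr3:109129803-109129969; 3.21, FDR 0.0539, from the authors' deposited table). A second Slc25a24 peak, 48367 bases downstream, was also higher in knockout, with 4.02 against 2.17 in control (1.84, FDR 0.186, from the authors' deposited table). The peak assigned to Slc9a3, the epithelial sodium-proton exchanger NHE3, had a knockout mean of 0.13, the lowest value of that column, and a control mean of 3.29 (FDR 0.0589, from the authors' deposited table). Slc52a3, a riboflavin transporter, had 4.44 in knockout and 2.40 in control (2.04, FDR 0.0673, from the authors' deposited table).

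At 4 transporter peaks the control mean was listed at 0, so no fold is given. Knockout means there were 3.41 upstream of Slc31a2, a copper transporter gene (FDR 0.0731), and 3.24 for Slc28a1, the nucleoside transporter CNT1 (FDR 0.0887), in the authors' deposited table. They were 3.08 upstream of Slc22a15 (FDR 0.158) and 2.92 for Slc2a3, the glucose transporter GLUT3 (FDR 0.158), again from the authors' deposited table. The Slc28a1 peak lies in an exon of Alpk3, a neighbouring kinase gene. Slc28a1 and Slc22a15 each had a second listed peak, in an intron of the gene itself, that was lower in knockout. The fold there was -1.66 (FDR 0.449) at Slc28a1 and -1.73 (FDR 0.541) at Slc22a15, in the authors' deposited table.

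Among the other higher peaks, Slc15a2, the peptide transporter PEPT2, had a strong intron peak of 6.15 in knockout and 5.13 in control (1.02, FDR 0.130, from the authors' deposited table). Slc5a5, the iodide transporter of the thyroid, had 4.10 in knockout and 1.91 in control (2.19, FDR 0.135, from the authors' deposited table). SLC24 proteins exchange calcium, and SLC30 proteins move zinc out of the cytosol. Slc24a3, a potassium-dependent sodium-calcium exchanger, had 3.50 in knockout and 0.88 in control (2.62, FDR 0.146, from the authors' deposited table). The zinc exporter family gene Slc30a4 read 5.29 in knockout and 3.88 in control (1.41, FDR 0.150) and Slc30a9 read 5.43 in knockout and 4.28 in control (1.15, FDR 0.150), both in the authors' deposited table. Slc22a23, an organic ion transporter family gene, had 2 peaks with positive folds, of 1.29 (FDR 0.154) and 2.06 (FDR 0.346), both far upstream, in the authors' deposited table.

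Among the other lower peaks, Slc7a10, an exchanger of small neutral amino acids, had 1.08 in knockout and 3.51 in control (-2.43, FDR 0.153, from the authors' deposited table). Slc35d1, a nucleotide sugar transporter gene, had 3.40 in knockout and 4.70 in control (-1.31, FDR 0.192, from the authors' deposited table). The Slc10a5 peak lay in an intron of Zfand1 and had 2.36 in knockout and 3.85 in control (-1.49, FDR 0.216, from the authors' deposited table).

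**Figure D2:**
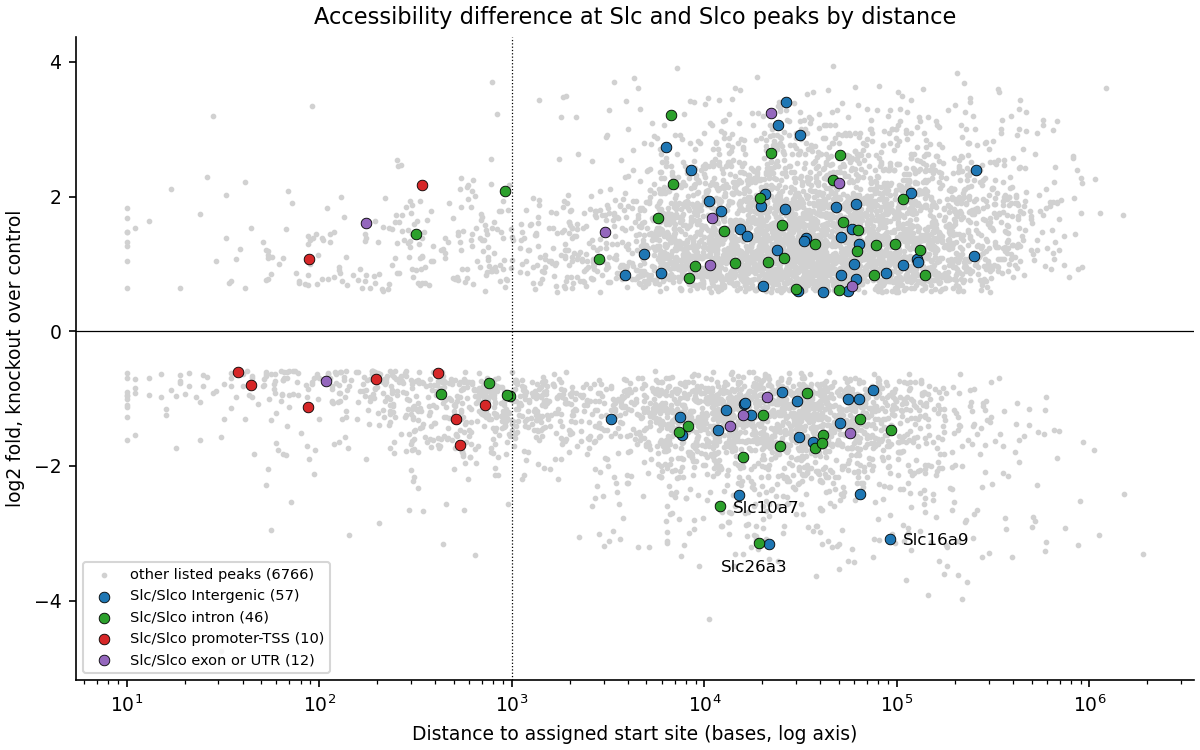
Log2 fold (knockout over control) against distance to the assigned start site in bases on a log axis, with distances under 10 drawn at 10. Coloured points are the 125 transporter peaks by annotation class, grey points the 6766 other listed peaks, and the dotted line marks 1 kb. The 3 called peaks are named, 5 coloured points have a mean at the lowest value of its column, and left of the dotted line 13 of the 18 coloured points lie below 0.

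Across all 125 peaks, 75 had a higher mean in knockout and 50 a lower one, so 60% were higher (95% Wilson interval 51.2% to 68.2%, counting error only). In the whole list 62.1% were higher, and transporter peaks do not stand out from it. Folds where both means were above the lowest value of their column ran from 0.59 to 3.21 (median 1.34) for 71 higher peaks and from -0.61 to -3.14 (median -1.27) for 49 lower ones in the authors' deposited table. For the other listed peaks these medians were 1.34 and -1.25. The size of a fold follows the signal, since a weak peak needs a large difference to be listed. Transporter peaks with mean signal under 3 had a median absolute fold of 2.22 (32 peaks), those from 3 to 5 one of 1.27 (73 peaks), and those of 5 or more one of 0.72 (20 peaks).

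By annotation class, intergenic transporter peaks were higher in 37 of 57 cases (64.9%, Wilson interval 51.9% to 76%), against 75.3% of the 2952 other intergenic peaks. Intron peaks were higher in 29 of 46 (63%, 48.6% to 75.5%), against 55.4% of 3015 others. Promoter peaks were higher in 2 of 10 (20%, 5.67% to 51%), against 36.8% of 405 others. Exon peaks were higher in 4 of 6, against 30.9% of 149 others, and 3 of the 5 peaks in a 3′ untranslated region were lower. These comparisons carry no test, and the interval of each transporter share named with one includes the share of the other peaks. In first introns 10 of 15 transporter peaks were higher (66.7%, 41.7% to 84.8%), against 46.2% of 1103 others.

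By distance the share of higher peaks among transporters was 27.8% within 1 kb (18 peaks), 70.6% at 1 to 10 kb (17), 57.4% at 10 to 50 kb (54) and 73.5% at 50 to 200 kb (34). For the other listed peaks it was 30.7%, 54.9%, 64% and 74% at the same distances. Both of the 2 peaks beyond 200 kb were higher. They were assigned to Slc16a7, the monocarboxylate transporter MCT2, at 257066 bases, and to Slc7a11, the cystine-glutamate exchanger, at 251071 bases. If each transporter peak is given the share of the other peaks of its own class and distance, 61.4% would be higher, against the 60% measured.

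**Figure D3:**
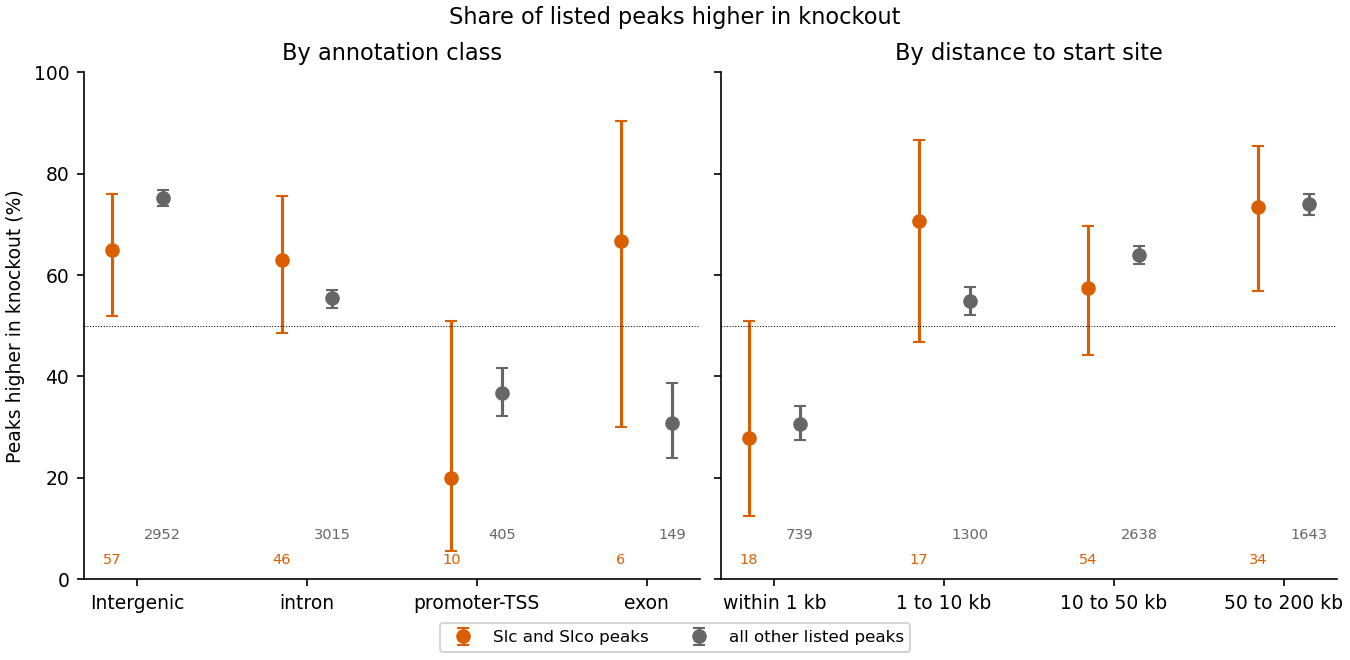
Percent of listed peaks with a higher mean in knockout, by annotation class and by distance to the start site, for transporter peaks (orange, left of each pair) and all other listed peaks (grey). Bars are 95% Wilson intervals for counting error, and the numbers at the foot are peaks. Within 1 kb both sets lie near 30% higher, and at 50 to 200 kb both lie near 74%.

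The gene assigned in the authors' deposited table is often not the gene that holds the peak. By RefSeq coordinates 57 of the 125 transporter peaks overlapped their assigned gene, 12 lay in another protein-coding gene and 56 in none. Both peaks assigned to Slco1c1 lie in introns of the phosphodiesterase gene Pde3a, both assigned to Slc45a4 lie in Dennd3, and that of Slc24a1 lies in Dennd4a. Those of Slc15a1, Slc22a16 and Slc10a4 lie in Dock9, Cdk19 and Fryl. In the assigned gene 33 of 57 peaks were higher in knockout (57.9%), in another gene 6 of 12 and in no gene 36 of 56 (64.3%).

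The barrier transporters, a list of 38 genes known or proposed to act in brain or retinal endothelium, had 21 listed peaks at 14 genes, of which 10 were higher in knockout and 11 lower. None was called. The share of 47.6% higher (Wilson interval 28.3% to 67.6%) compares with 62.5% of the 104 other transporter peaks and with 63.4% of peaks outside the transporters at the same mix of class and distance. Of the 38 genes 36.8% had a listed peak, against 23.7% of all solute carrier genes. No peak was listed for 24 genes of the list, among them Slc2a1 (GLUT1, the glucose transporter), Slc16a1 (MCT1, the lactate transporter), Slc3a2 and Slc7a1.

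Amino acid carriers of the barrier went both ways, with 4 lower peaks and 3 higher ones. Slc7a5 encodes LAT1, the carrier of large neutral amino acids. Its peak at chr8:121877178-121877669, 30262 bases downstream of the TSS, had 4.34 in knockout and 5.38 in control (-1.04, FDR 0.225, from the authors' deposited table). Slc6a6, the taurine transporter, had the smallest FDR of the list, 0.140, at exon 9 of 15 (chr6:91741149-91741429), with 3.25 in knockout and 4.76 in control (-1.51 in the authors' deposited table). Slc38a3 had a second lower peak besides its promoter, in the 3′ untranslated region, of 3.45 in knockout and 4.71 in control (-1.25, FDR 0.257, from the authors' deposited table). Both peaks of Slc38a2, the neutral amino acid transporter SNAT2, were higher instead, with folds of 1.52 and 1.00, and so was the distal Slc7a11 peak, with 1.12, in the authors' deposited table.

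Organic anion and thyroid hormone carriers had 4 higher peaks, all at sites outside their own genes, and 1 lower one. The Slco1c1 peaks inside Pde3a had 3.24 in knockout and 1.00 in control (2.24, FDR 0.237) and 4.49 in knockout and 3.30 in control (1.19, FDR 0.281), from the authors' deposited table. SLCO1C1 carries thyroid hormone at the blood-brain barrier. Slco1a4, a drug and steroid transporter of brain endothelium, had 3.43 in knockout and 2.09 in control 32981 bases upstream (1.34, FDR 0.520, from the authors' deposited table). Slc22a8, the organic anion transporter OAT3, had 4.15 in knockout and 2.94 in control (1.21, FDR 0.345, from the authors' deposited table). Slco2a1, which clears prostaglandins, differed from them: its promoter read 5.63 in knockout and 6.25 in control (-0.62, FDR 0.481, from the authors' deposited table).

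Metal, vitamin and lipid carriers were mixed. The iron exporter gene Slc40a1 had a strong peak in intron 5 of 7 with 6.48 in knockout and 5.69 in control (0.79, FDR 0.237, from the authors' deposited table). Its 2 peaks thus had opposite signs: a weak intergenic Slc40a1 peak had 0.82 in knockout and 3.24 in control (-2.41, FDR 0.161, from the authors' deposited table). Slc19a3, a thiamine transporter, had 1.99 in knockout and 3.35 in control (-1.36, FDR 0.475, from the authors' deposited table). Slc27a4 and Slc12a2 serve lipid uptake and salt balance. Slc27a4 stood at 3.37 in knockout and 4.34 in control (-0.96, FDR 0.470, from the authors' deposited table). Slc12a2, the sodium-potassium-chloride cotransporter NKCC1, had the strongest barrier peak, 7.14 in knockout and 6.55 in control (0.59, FDR 0.533, from the authors' deposited table).

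Direction differed with the place of the barrier peaks. Of the 7 that overlap their own gene, 6 were lower in knockout (Slc6a6, both of Slc38a3, Slc44a1, Slc27a4 and Slco2a1) and 1 was higher (Slc40a1). Of the 14 outside their own gene 9 were higher. All 4 barrier peaks within 1 kb of the TSS were lower. This split was drawn after the values were seen, the numbers are small, and 69.3% of other peaks within 1 kb were lower too.

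**Figure D4:**
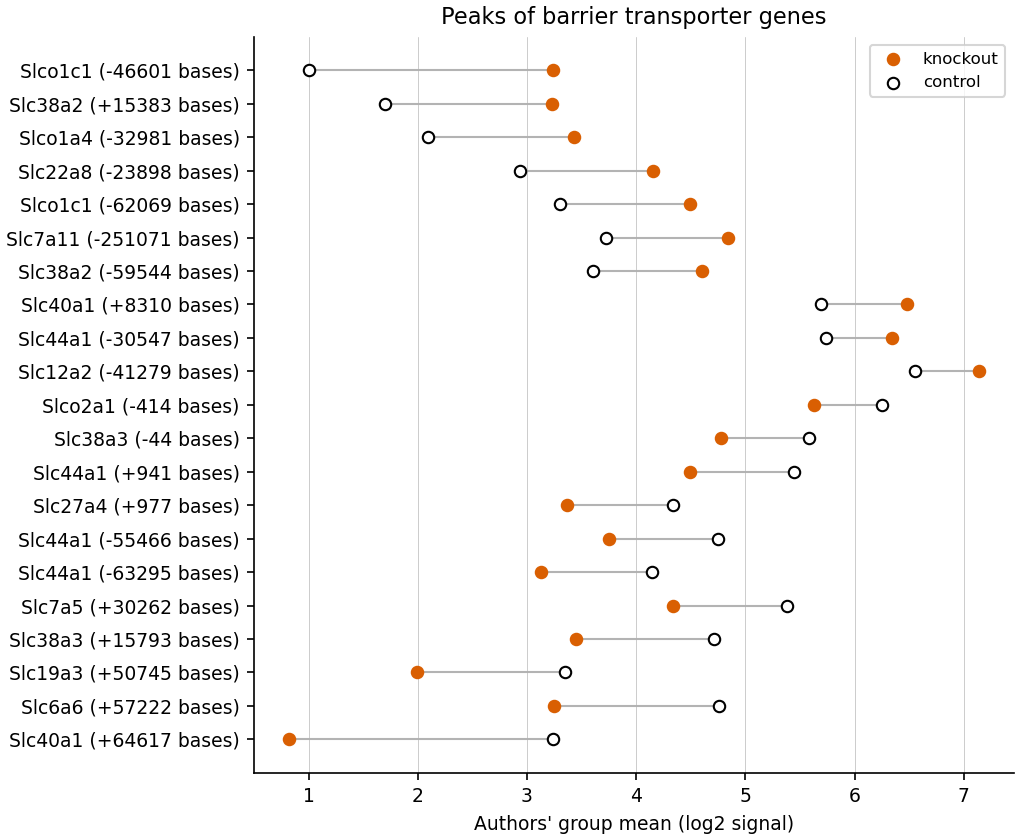
Knockout (filled) and control (open) group means in log2 signal for the 21 peaks of barrier transporter genes, named by gene and signed distance to the start site in bases and sorted by fold. The upper 10 rows are higher in knockout, led by Slco1c1, and the lower 11 are lower, ending with the intergenic Slc40a1 peak.

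Barrier genes outside the solute carriers had 12 listed peaks at 8 of 14 genes. Of these, 3 were higher in knockout (25%, Wilson interval 8.89% to 53.2%) and 9 lower. None was called at FDR 0.05, against 3.02% of all listed peaks, although all 12 were listed at an unadjusted p under 0.05. The higher ones lay upstream of Lef1, a Wnt effector (2.04, FDR 0.264), Lrp1, a lipoprotein receptor (1.69, FDR 0.450), and Insr, the insulin receptor (1.26, FDR 0.279), by the authors' deposited table. Lef1 and Insr each had a lower peak too, at -0.75 and -0.97 in the authors' deposited table. All 3 peaks of Ocln, the tight junction gene occludin, were lower in knockout, with folds of -1.78, -1.35 and -0.65 (FDR 0.338 to 0.429) in the authors' deposited table. The smallest FDR of these 12 peaks was at the peak assigned to Abcb1a, the P-glycoprotein efflux pump. That peak had 3.29 in knockout and 4.75 in control (-1.46, FDR 0.114, from the authors' deposited table). It is annotated to intron 3 of 9 of a transcript. The gene of the annotated transcript was looked up for transporter peaks only, so this peak may lie in another gene. Mfsd2a, the lysolipid transporter that restrains transcytosis, had 6.92 in knockout and 7.50 in control (-0.59, FDR 0.538, from the authors' deposited table). Peaks of ABC transporters, the ATP-driven pumps, were higher in 13 of 15 cases (86.7%, Wilson interval 62.1% to 96.3%). The Abcb1a peak is 1 of the 2 lower ones. Ion channel peaks were higher in 63 of 90 (70%, 59.9% to 78.5%) and P-type ATPase peaks in 15 of 26 (57.7%, 38.9% to 74.5%). Called peaks numbered 0 of 15 for ABC transporters, 3 of 90 for ion channels and 0 of 26 for P-type ATPases. Of all listed peaks 3.02% were called, and with so few peaks these counts show no difference between the families.

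Families differed in their counts, none of them large. Slco genes had 8 higher peaks of 10, at 6 genes, and the nucleoside transporters of family Slc28 had 4 of 5. Slc7, the cationic and heteromeric amino acid transporters, had 1 higher of 6, at 5 genes (Slc7a4, Slc7a5, Slc7a8, Slc7a10 and Slc7a11). Slc38 had 2 of 6, Slc6 had 1 of 4, and all 3 peaks assigned to Slc10 genes were lower, 2 of them inside other genes. Mitochondrial carriers (Slc25) had 4 higher of 7, zinc exporters (Slc30) 4 of 6 and the Slc35 nucleotide sugar transporter family 6 of 9. By substrate class, given to whole families, sugar carriers were higher at 12 of 17 peaks (70.6%). Of these 12, 5 belong to Slc45a1, and the class also holds the iodide transporter gene Slc5a5. Ion carriers were higher at 7 of 10, and organic ion and drug carriers at 14 of 22 (63.6%). Amino acid and peptide carriers were higher at 9 of 18 (50%), while 62.1% of the whole list were higher. Fatty acid (Slc27) and choline (Slc44) transporter families, taken as 1 class, were higher at 2 of 7 (28.6%), and 5 of these 7 peaks are Slc44.

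Of the 92 genes, 24 had more than 1 listed peak, and at 15 of them all peaks went the same way (62.5%), 11 higher in knockout and 4 lower. Among other genes with more than 1 peak the share was 57%. At 6 genes there were 3 or more. Slc45a1, a sugar transporter family gene expressed in brain, had 5, all intergenic and upstream of its TSS by 3863 to 61353 bases and all higher in knockout (folds 0.60 to 1.89, FDR 0.201 to 0.477 in the authors' deposited table). The strongest of them, at chr4:150707131-150708023, had 7.67 in knockout and 7.07 in control (0.60 in the authors' deposited table). No peak of another gene was listed within 100 kb of this row.

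Slc1a3, the glial glutamate transporter GLAST of Müller cells, had 3 peaks, all higher, with folds of 2.74 (FDR 0.135), 1.49 and 1.40 in the authors' deposited table. The first, 6311 bases upstream, read 3.41 in knockout and 0.67 in control in the authors' deposited table. Slc28a3, the nucleoside transporter CNT3, had 3 with folds of 1.79, 1.03 and 0.87, and the 2 listed peaks of neighbouring Hnrnpk within 100 kb were also positive, in the authors' deposited table. Slco3a1 had 3 higher peaks with folds of 1.03, 0.99 and 0.63 in the authors' deposited table.

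Slc44a1 and the zinc exporter gene Slc30a2 went both ways. Slc44a1 had lower means in knockout at 3 peaks (folds of -1.01 to -0.94) and a higher one at the strongest, 6.34 in knockout and 5.74 in control (0.60, FDR 0.480, from the authors' deposited table). Slc30a2 had 2 lower peaks (-1.41 and -1.40) and 1 higher (0.98) in the authors' deposited table, and the one at -1.41 lies in the 3′ untranslated region of Extl1.

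**Figure D5:**
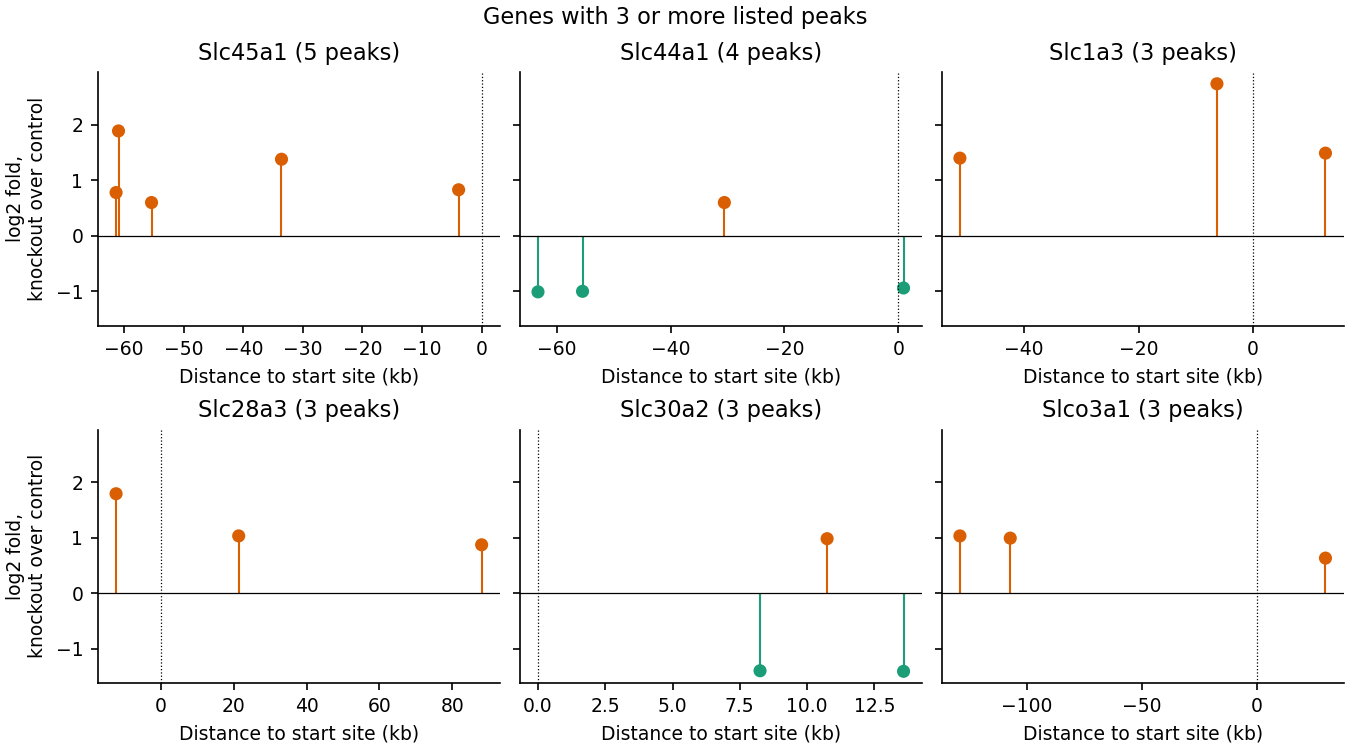
Log2 fold (knockout over control) of each listed peak against its signed distance to the start site in kb, for the 6 transporter genes with 3 or more peaks. Orange stems are higher and green stems lower in knockout; Slc45a1, Slc1a3, Slc28a3 and Slco3a1 have orange stems only.

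Transporters typical of neurons and glia had 5 listed peaks, and those of other cell types 2. Of 18 neuronal, photoreceptor and glial transporter genes 3 were listed (16.7%, against 23.7% of all solute carrier genes), with 4 peaks higher (3 of Slc1a3 and 1 of Slc24a1, the rod exchanger) and 1 lower (Slc18a2, the vesicular monoamine transporter, -1.17, FDR 0.331, from the authors' deposited table). Of 8 transporter genes of erythroid cells, macrophages, microglia and pigment cells 2 were listed (25%). Slc2a5, a fructose transporter of microglia, was higher (1.94, FDR 0.324, from the authors' deposited table) and Slc45a2 lower. Whether the share of such cells differed between the groups was not tested.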

How the data were processed

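The data were 1 table of ATAC-seq peaks, deposited as a text file and as a workbook sheet, with the same numbers in all 6891 rows. Coordinates are on mm10 and the tools listed in the submitters' processing notes, with no role for any, include MACS2, DiffBind, edgeR, ChIPseeker, Bowtie2 and Trimmomatic 0.36. How reads were shifted, filtered and scaled, and how the peak set was built, is not given in these sources. The authors deposited the overall mean signal, knockout level and control level as log2 values. Their log2 fold equals knockout minus control within 0.010 in every row. Each peak's p-value and FDR were deposited too and were used as they stand.

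No new test was run: values per library were not available, and listed peaks are not replicates. Members were selected by gene name, counted by direction, annotation class and distance, and set beside the same counts over all other listed peaks, with Wilson 95% intervals. Counting was tested on simulated data (Python 3.11.15, pandas 2.3.3). All 92 symbols matched the RefSeq table of GRCm38.p6. The sign of the deposited distance was the same as that computed from RefSeq starts for 90 of 91 peaks, so negative distances are upstream. Folds are not given where a mean was at the lowest value of its column (0.13 in knockout, 0 in control). Named were the called peaks, the 12 of smallest FDR per direction, genes with 3 or more peaks, and listed members of the transporter lists or with a promoter peak. Other genes were named after their values were seen. The members, lists and rules were chosen with earlier results of these data known. Settings tried were p under 0.01, FDR under 0.01, 0.1 and 0.2, an absolute log2 fold of at least 1, signal at or above the median, a distance limit of 50 kb, 1 peak per gene, peaks in the assigned gene, and removal of lowest values.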

Additional observations from a re-analysis of the deposited data

How the results depend on the processing

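The overall share of 60% higher stayed between 53.9% (within 50 kb) and 65.4% (FDR under 0.2) in the 9 settings tried, inside its own interval. The intergenic and intron shares also stayed inside theirs in each setting tried. The promoter share of 20% became 0%, 0 of 2, at p under 0.01, and 0%, 0 of 6, at or above the median signal. The barrier share of 47.6% became 14.3% (1 of 7) among peaks in the assigned gene, a setting added after the data were seen. The number of called transporter peaks, 3, became 0 at FDR under 0.01, where 0.319% of all listed peaks pass, and 0 of 57 at or above the median signal, where 2.05% pass. It became 8 (4 higher and 4 lower) at FDR under 0.1, where 7.89% of all listed peaks pass, and 26 (17 higher and 9 lower) at FDR under 0.2, where 20.4% pass. The fall at all 3 called peaks thus gives no direction for the transporters as a whole. No paired analysis was possible because the table holds group means only, and for the same reason no library could be left out. The stricter limits leave fewer peaks and the looser FDR limits more, and the cause of each shift was not tested.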

Other observations

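Peaks of the same transporter gene lay within 2 kb of each other at 3 places. At Slc45a1 2 peaks separated by 85 bases were both higher in knockout, with folds of 1.89 and 0.78 in the authors' deposited table. The 2 Slc25a20 peaks were separated by 115 bases and both were lower. At Slc35c1, the Golgi GDP-fucose transporter gene, 2 intergenic peaks separated by 590 bases differed in sign. The one 26077 bases upstream of the TSS had 4.26 in knockout and 2.44 in control, a fold of 1.82 with FDR 0.132, and the one 25256 bases upstream had 3.66 in knockout and 4.56 in control, a fold of -0.90 with FDR 0.500, by the authors' deposited table. Slc39a11 also had both signs, with its promoter at -1.13 and an intron peak 131709 bases downstream at 1.20 (FDR 0.268) in the authors' deposited table.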
